A study of Mus musculus with 8 samples.

Results

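Prostaglandins, thromboxane and leukotrienes are signalling lipids made from arachidonic acid. Here 10 enzyme genes of their synthesis were followed (Ptgs1, Ptgs2, Ptges, Hpgds, Tbxas1, Alox5, Alox5ap, Alox15, Lta4h and Ltc4s). The cells were lung macrophages sorted from control mice and from mice built to lose PPARγ, the fatty acid receptor encoded by Pparg. The genes were chosen by function, with earlier results of these data known. Each was read from the probe set that carries its symbol alone. Of the 10, 9 had such a probe set, 1 each, among 18782 genes of the array. Ptgs1, the constitutive cyclooxygenase, had none in the annotation used here and has no value. Signals are log2 values, so a difference of 1 is a doubling.

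The 8 arrays form 4 groups of 2. Knockout (KO) mice carried CD11c-Cre and a loxP-flanked Pparg gene (CD11cCre/PPARg fl/fl), and control (WT) mice carried the flanked gene without Cre (PPARg fl/fl), all on the C57BL/6 background. The groups are KO at day 2 after birth, WT at day 2, KO at day 11 and WT at day 11, with the sorted cells of 2 mice pooled for each array. Cre driven by CD11c acts in any cell that expresses CD11c, which includes dendritic cells as well as alveolar macrophages. At day 11 the sort took autofluorescent CD45+ Siglec-F+ cells with high CD11c, and among them those with high CD11b from KO mice and low CD11b from WT mice. At day 2 it took CD45+ cells with high CD11c and the surface protein of Adgre1, a macrophage marker, that were either low in Siglec-F and high in CD11b or intermediate in both. The labels do not say which genotype each day 2 gate was for. Itgam, which encodes CD11b, had a signal of 10.98 and 10.78 in KO at day 2 against 7.87 and 7.79 in WT, and 10.86 and 10.66 in KO at day 11 against 6.22 and 6.32 in WT. Siglecf had 7.13 and 7.46 in KO at day 2 against 9.85 and 9.90 in WT, so CD11b and Siglec-F transcripts differed with genotype at day 2 in the directions that tell its gates apart. Gate and genotype cannot be told apart at day 11, and no value here separates them at day 2. The sample titles call the day 2 cells preAM and the day 11 cells AM, and the gates differed between these ages. Age and gate therefore cannot be told apart in any comparison of day 11 with day 2, the interaction included. In sorted bulk samples, a lower share of cells that carry a transcript and less of it per cell cannot be told apart. The p-values measure the spread between pools.

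Arachidonic acid is freed from membrane lipids by phospholipases. On the prostanoid branch, the cyclooxygenases Ptgs1 and Ptgs2 turn it into prostaglandin H2, and terminal synthases make prostaglandin E2 (Ptges), prostaglandin D2 (Hpgds) or thromboxane (Tbxas1) from that intermediate. On the leukotriene branch, Alox5 works with its partner protein Alox5ap to make leukotriene A4, which Lta4h converts to the neutrophil attractant leukotriene B4 and Ltc4s joins with glutathione to make leukotriene C4, parent of the cysteinyl leukotrienes. Alox15 oxygenates the same substrate at other carbons. Macrophages of the lung make both classes, and some oxidised fatty acids and prostaglandin D2 products can bind PPARγ.

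As a check of the samples, Pparg signal was 10.55 and 10.74 in KO at day 2 against 10.89 and 11.01 in WT, and 11.32 and 11.36 in KO at day 11 against 11.18 and 11.13 in WT. No source used here says where its probes lie relative to the deleted part, so this signal does not test the deletion. All 9 general macrophage markers were measured, and their mean signal lay between 11.07 and 11.27 on every array, but single markers moved. Adgre1, Csf1r and Fcgr1 were higher and Mertk and Mrc1 lower in KO cells at day 2, and Adgre1 and Csf1r higher and Mertk and Mrc1 lower at day 11. Of 10 measured alveolar macrophage markers, 1 (Itgax) was higher and 8 were lower at day 2, and 1 (Itgax) was higher and 7 were lower at day 11. The mean of these 10 alveolar macrophage markers, of which Siglecf and Itgax belong to the gates, was 6.92 and 7.29 in KO at day 2 against 9.58 and 9.68 in WT, and 8.05 and 8.13 in KO at day 11 against 10.83 and 10.80 in WT. KO day 2 replicate 1 stood apart in 11 interferon response genes, whose mean was 8.82 there and 5.06 to 5.81 on the other 7 arrays. Sex was not balanced, and 3 pools appear to be of 1 sex. Xist, transcribed from the inactive X chromosome of females, was 3.38 in WT day 2 replicate 2 and 3.46 in KO day 11 replicate 1 against 9.85 to 10.68 elsewhere, and the Y-linked gene Uty was lowest in KO day 2 replicate 1, at 4.22.

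The comparison of genotypes asks how the cells sorted from KO mice differ from those of WT mice in the first days after birth. Ptgs2, the inducible cyclooxygenase, was higher in KO cells by 9.09-fold at day 2 and 8.14-fold at day 11. In the leukotriene branch 3 genes were lower in KO cells at both ages, Ltc4s by 2.49-fold and 2.79-fold, Lta4h by 1.5-fold and 1.45-fold, and Alox5 by 1.42-fold and 1.44-fold. The other 5 measured genes, Ptges, Hpgds, Tbxas1, Alox5ap and Alox15, showed no call at either age. In counts, 1 of 9 was called higher and 3 were called lower at each age, where a call is a limma adjusted p under 0.05 over all 18782 genes. Across all genes, 20.1% were called at day 2 (8.86% higher and 11.2% lower) and 18.6% at day 11 (9.34% higher and 9.29% lower). The median KO difference of the 9 genes was -0.09 at day 2 and -0.28 at day 11, beside -0.03 and -0.00 over all genes.

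**Figure D1:**
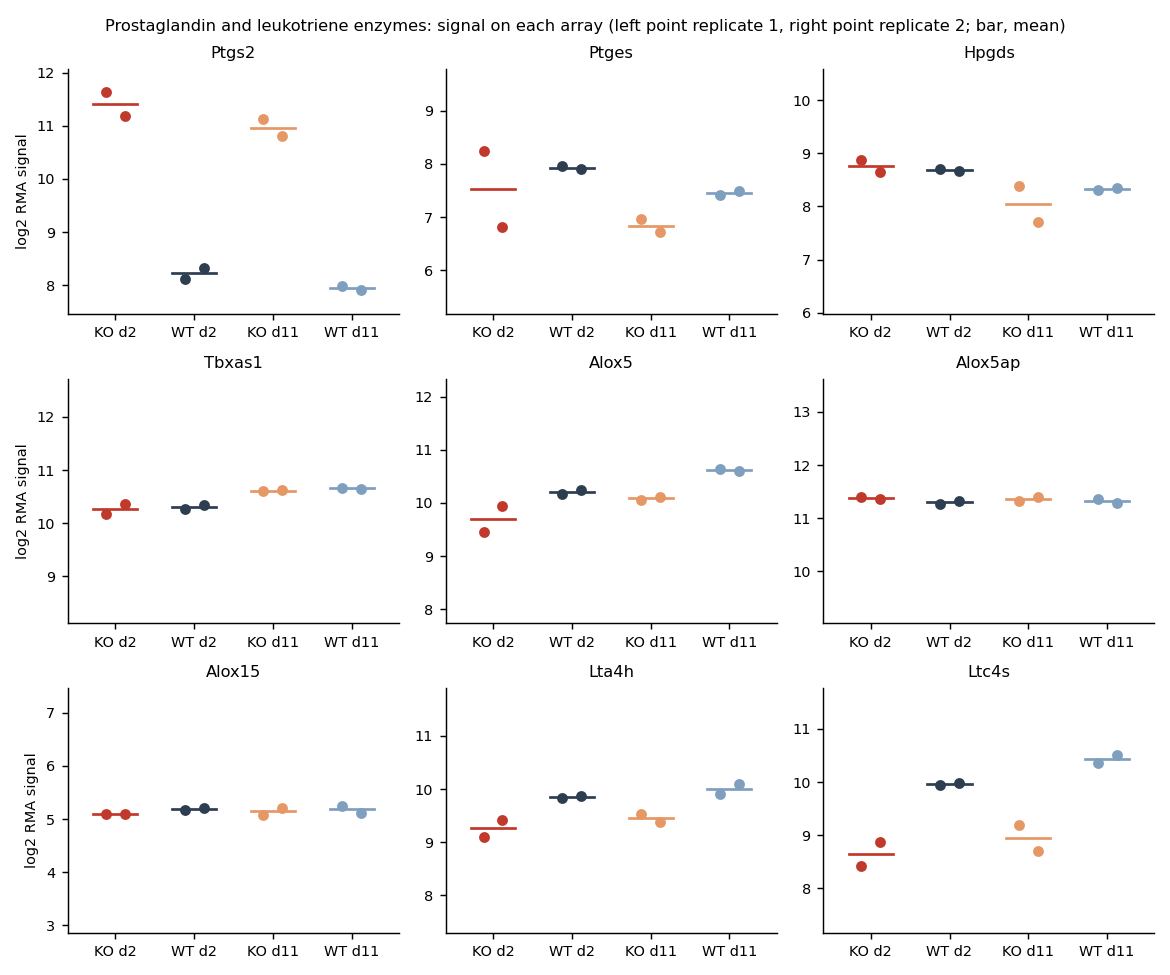
Signal of the 9 measured enzyme genes on each array, in log2 RMA units, with 1 panel per gene and the same span of the vertical axis in each. Points are pools of 2 mice and bars are group means. The 4 KO arrays of Ptgs2 lie between 10.80 and 11.63 and the 4 WT arrays between 7.90 and 8.33, while Alox5ap and Alox15 stay within 0.2 of a common level.

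Ptgs2 (RefSeq gene model on GRCm38.p6, chr1:150100031-150108234) is switched on within hours by inflammatory signals and sets how much prostaglandin H2 a stimulated macrophage makes. Its signal was 11.63 and 11.18 in KO at day 2 against 8.11 and 8.33 in WT, and 11.13 and 10.80 in KO at day 11 against 7.98 and 7.90 in WT. The 4 KO pools and the 4 WT pools did not overlap at any age, and the lowest KO value lay above the highest WT value. At day 2 the log2 difference was 3.18 ± 0.16 (SE, 2 arrays in each group) with an adjusted p of 1.6e-05. At day 11 it was 3.02 ± 0.16 with an adjusted p of 2.36e-05, and it kept its call in all 16 alternative fits at each age. Genes induced by tissue dissociation, an early response that can include Ptgs2, moved the same way by less. Of 12 measured, 8 were called higher and none lower at day 2 with a median difference of 0.44, and 7 were higher and 1, Jun, lower at day 11 with a median of 0.33. Their mean signal was 10.59 and 10.72 in KO at day 2 against 10.22 and 10.25 in WT, and 10.68 and 10.71 in KO at day 11 against 10.34 and 10.37 in WT. Its part in the Ptgs2 difference was not tested.

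The promoter window of Ptgs2 is shown because the gene has the largest difference of the 9. It spans 250 bases before the annotated start and 50 after it, from RefSeq (GRCm38.p6, chr1:150099781-150100080, plus strand), and capitals mark the motifs found. These are a GC box (GGGCGG) at bases -170 to -165, a palindrome of the kind that C/EBP factors bind (TTGCGCAA) at -69 to -62, and an ACGTCA half-site of the cyclic AMP response element that overlaps a CACGTG E-box at 13 to 22.
Ptgs2: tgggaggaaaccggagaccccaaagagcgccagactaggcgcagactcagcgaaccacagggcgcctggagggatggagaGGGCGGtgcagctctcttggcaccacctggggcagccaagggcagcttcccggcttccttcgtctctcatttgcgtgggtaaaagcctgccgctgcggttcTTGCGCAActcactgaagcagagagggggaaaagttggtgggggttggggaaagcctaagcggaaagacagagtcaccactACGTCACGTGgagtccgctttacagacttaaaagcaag
Both strands were searched. The C/EBP-type palindrome stands in 0.183% of 32851 such windows, the ACGTCA half-site in 7.51%, the CACGTG E-box in 7.15% and the GC box in 35.7%. Motif letters were chosen with these windows in view, so their presence is a description of the sequence only.

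**Figure D2:**
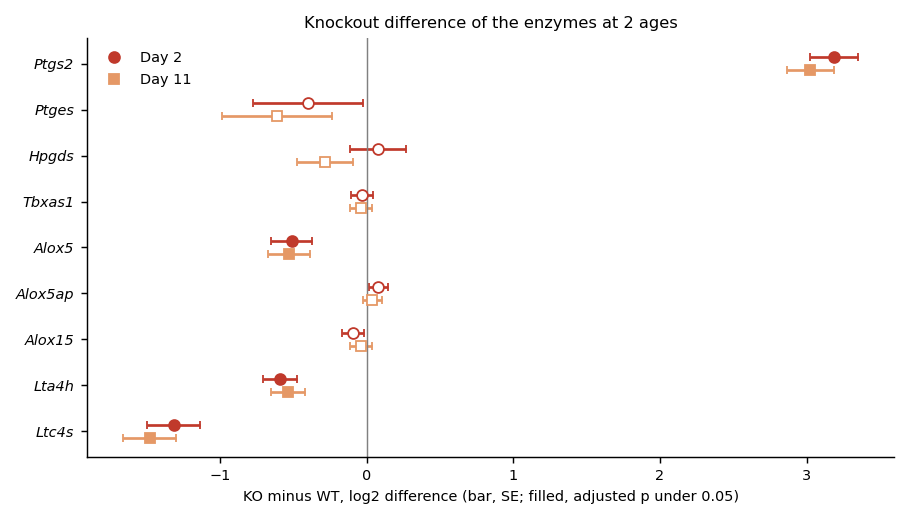
KO minus WT difference of each enzyme gene on the log2 scale at day 2 (circles) and day 11 (squares), with standard errors from the fit over all 8 arrays. Filled symbols passed an adjusted p of 0.05. Ptgs2 lies near 3 to the right, Ltc4s at -1.32 and -1.48, and Lta4h and Alox5 between -0.6 and -0.5.

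None of the 3 terminal prostanoid synthases was called at either age. Ptges (chr2:30889471-30931020), the microsomal prostaglandin E synthase that often rises with Ptgs2 in stimulated cells, had a signal of 8.25 and 6.82 in KO at day 2 against 7.97 and 7.90 in WT, and 6.96 and 6.72 in KO at day 11 against 7.41 and 7.49 in WT. The 2 KO pools of day 2 lay on either side of the WT pools, whereas both KO pools of day 11 lay below both WT pools. The day 2 difference was -0.40 ± 0.37 (adjusted p = 0.539) and the day 11 difference -0.61 ± 0.37 (adjusted p = 0.352), with an error that every group shares and that holds the gap between the day 2 KO pools. The higher of those pools, replicate 1, has high interferon response genes and is also 1 of the 3 pools of 1 sex. These traits cannot be told apart in it. The day 2 difference was -1.115 without replicate 1, 0.32 without replicate 2 and -1.15 without the 3 pools of 1 sex. The day 11 difference was called with the 4 arrays of that age alone (adjusted p = 0.00866). It was also called without either of the day 2 KO pools, where that gap leaves the error.

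Hpgds (chr6:65117293-65144981), which makes prostaglandin D2 in blood-derived cells, had a signal of 8.87 and 8.66 in KO at day 2 against 8.70 and 8.67 in WT, and 8.38 and 7.70 in KO at day 11 against 8.31 and 8.34 in WT. The genotypes overlapped at both ages, and the difference was 0.08 (95% interval -0.36 to 0.52) at day 2 and -0.28 (-0.72 to 0.16) at day 11. The day 11 KO pools differed by 0.68. The day 11 difference was -0.62 without replicate 1, the higher of them, and 0.06 without replicate 2. Those fits drop the gap between the pools, so a call in them adds no support.

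Tbxas1 (chr6:38864159-39084590), thromboxane synthase, had a signal of 10.18 and 10.36 in KO at day 2 against 10.26 and 10.34 in WT, and 10.61 and 10.62 in KO at day 11 against 10.66 and 10.65 in WT. The genotypes overlapped at day 2, and at day 11 both KO arrays lay just below both WT arrays. The KO difference was -0.03 (95% interval -0.20 to 0.14) at day 2 and -0.04 (-0.21 to 0.13) at day 11. The intervals leave room for a difference of up to 0.21 in size. The Tbxas1 gene model overlaps 7 others in the annotation, the coding gene Hipk2 among them, those of Ptges, Alox5 and Alox15 overlap non-coding models or pseudogenes, and no source used here places the probes relative to them.

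On the leukotriene branch Alox5, Lta4h and Ltc4s were called lower in KO cells at both ages, and Alox5ap and Alox15 were not called. Alox5 (chr6:116410071-116461178), which forms leukotriene A4, had a signal of 9.45 and 9.94 in KO at day 2 against 10.16 and 10.25 in WT, and 10.05 and 10.12 in KO at day 11 against 10.63 and 10.60 in WT. Every KO array lay below both WT arrays of its age. The day 2 difference was -0.51 ± 0.14 (adjusted p = 0.0386) and the day 11 difference -0.53 ± 0.14 (adjusted p = 0.0351). At day 2 the call was lost without any array other than KO day 2 replicate 2 (adjusted p from 0.0575 to 0.182), with the 4 arrays of that age alone (0.11), with all probe sets in the fit (0.052) and without the 3 pools of 1 sex (0.245), and without KO day 2 replicate 1 the difference was -0.26. At day 11 it was lost without any WT array or either day 11 KO array (adjusted p from 0.0621 to 0.156).

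Alox5ap (chr5:149265004-149288153), which presents arachidonic acid to Alox5, had a signal of 11.39 and 11.36 in KO at day 2 against 11.26 and 11.33 in WT, and 11.33 and 11.39 in KO at day 11 against 11.36 and 11.28 in WT. All 8 arrays lay within 0.13 of each other, with the KO arrays above the WT arrays at day 2 and overlapping them at day 11. The difference was 0.08 (95% interval -0.07 to 0.23) at day 2 and 0.04 (-0.11 to 0.19) at day 11.

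Lta4h (chr10:93453396-93484896), the hydrolase that makes leukotriene B4, had a signal of 9.11 and 9.43 in KO at day 2 against 9.84 and 9.87 in WT, and 9.53 and 9.39 in KO at day 11 against 9.90 and 10.09 in WT. The 4 KO arrays lay below the 4 WT arrays. The day 2 difference was -0.59 ± 0.12 (adjusted p = 0.00936) and the day 11 difference -0.54 ± 0.12 (adjusted p = 0.015). The call was lost without WT day 2 replicate 1 (adjusted p = 0.0512), replicate 2 (0.0643) or the 3 pools of 1 sex (0.122) at day 2, and without WT day 11 replicate 2 (0.101) or KO day 11 replicate 2 (0.0909) at day 11.

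Ltc4s (chr11:50236461-50238532), which makes leukotriene C4, had the largest fall of the 9. Its signal was 8.43 and 8.87 in KO at day 2 against 9.95 and 9.98 in WT, and 9.19 and 8.71 in KO at day 11 against 10.35 and 10.50 in WT. No KO array reached a WT array of either age. The day 2 difference was -1.32 ± 0.18 (adjusted p = 0.00153) and the day 11 difference -1.48 ± 0.18 (adjusted p = 0.000882), and both calls were kept in all 16 alternative fits.

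The windows of the 3 leukotriene genes that fell are given for comparison with one another and with Ptgs2, with the same motif searches and 250 bases before the start. Ltc4s (chr11:50238483-50238782, minus strand) holds an AGGAAGT of the kind that ETS factors such as the macrophage regulator PU.1 bind, at bases -117 to -111. Alox5 (chr6:116461129-116461428, minus strand) holds a GGGCGG GC box at -35 to -30. Lta4h (chr10:93453146-93453445, plus strand) holds none of the motifs searched, so it has no capitals.
Ltc4s: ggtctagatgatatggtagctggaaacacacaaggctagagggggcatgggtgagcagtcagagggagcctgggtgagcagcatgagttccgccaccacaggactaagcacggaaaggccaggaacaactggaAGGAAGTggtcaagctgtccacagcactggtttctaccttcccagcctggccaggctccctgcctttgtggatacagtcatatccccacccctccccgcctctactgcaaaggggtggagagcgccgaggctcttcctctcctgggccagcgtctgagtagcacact
Alox5: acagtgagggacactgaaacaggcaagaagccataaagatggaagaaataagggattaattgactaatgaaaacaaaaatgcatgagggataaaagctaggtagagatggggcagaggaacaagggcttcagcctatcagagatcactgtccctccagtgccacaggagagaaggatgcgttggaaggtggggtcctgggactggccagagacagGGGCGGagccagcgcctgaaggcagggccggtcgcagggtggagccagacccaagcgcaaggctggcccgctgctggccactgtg
Lta4h: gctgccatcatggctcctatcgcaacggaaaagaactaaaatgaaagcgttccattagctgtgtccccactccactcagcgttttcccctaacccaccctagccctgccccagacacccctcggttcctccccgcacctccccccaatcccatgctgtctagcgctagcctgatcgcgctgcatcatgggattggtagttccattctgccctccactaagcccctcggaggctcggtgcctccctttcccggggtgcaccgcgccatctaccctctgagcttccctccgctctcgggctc
AGGAAGT stands in 9.35% of the 32851 windows, those of Hpgds and Ptgs1 among them, and the window of Ptges holds GC boxes. Hpgds and Ptges were not called between the genotypes at either age, so these motifs are not particular to the genes that were called. Also searched were an NF-κB-type motif of GGG and TTCC with 3 bases of any kind between them (5.56% of windows), the TATAAA box (13.6%), the nuclear receptor half-site AGGTCA (16.3%) and its direct repeat with 1 base of any kind between the copies, which PPAR binds with its partner RXR (0.0396%). None of these 4 was in the windows of Ptgs2, Ltc4s, Alox5 or Lta4h. A window of this size says nothing of sites farther away, and 8 of the 10 genes had one in the table, which lacks entries for Alox5ap and Alox15.

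Alox15 (chr11:70344147-70390538) encodes the lipoxygenase that resident macrophages of the mouse peritoneum carry in quantity. Its probe set had a signal of 5.09 and 5.10 in KO at day 2 against 5.17 and 5.21 in WT, and 5.08 and 5.21 in KO at day 11 against 5.24 and 5.12 in WT. All 8 values lay below 5.35, the median over the probe sets of each array, and the KO arrays were just below the WT arrays at day 2 and overlapped them at day 11. The difference was -0.09 (95% interval -0.27 to 0.08) at day 2 and -0.03 (-0.21 to 0.14) at day 11.

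Day 11 was compared with day 2 within each genotype. The sort gates differed between the ages, so these are differences between sorted populations. Tbxas1 was 1.28-fold higher at day 11 than at day 2 in WT cells (adjusted p = 0.0378) and 1.27-fold higher in KO cells (adjusted p = 0.0199), and every day 11 array lay above every day 2 array. Hpgds was 1.65-fold lower at day 11 than at day 2 in KO cells (adjusted p = 0.0399) and 1.28-fold lower without a call in WT cells (adjusted p = 0.332). In counts, 1 of 9 rose and none fell in WT cells, where 5.3% of all genes were called (2.81% higher and 2.49% lower), and 1 rose and 1 fell in KO cells, where 15.5% were called (8.81% higher and 6.71% lower). Each of these 3 calls was lost without some arrays. Tbxas1 in WT cells lost its call without any WT array or either day 11 KO array (adjusted p from 0.0561 to 0.194), and in KO cells without KO day 2 replicate 1 or either day 11 KO array (0.0726 to 0.0983). Hpgds in KO cells lost its call without any array other than KO day 11 replicate 1 (0.0527 to 0.169). Its difference of -0.72 became -0.38 without KO day 11 replicate 2 and -1.06 without replicate 1.

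Ltc4s and Alox5 had higher mean signals at day 11 than at day 2 in both genotypes without passing the test over all genes. The difference in WT cells was 0.46 ± 0.18 for Ltc4s (adjusted p = 0.191) and 0.41 ± 0.14 for Alox5 (adjusted p = 0.144). In KO cells it was 0.30 ± 0.18 (adjusted p = 0.344) and 0.39 ± 0.14 (adjusted p = 0.111). In KO cells the Alox5 difference was 0.64 without KO day 2 replicate 2 and 0.14 without replicate 1. Alox5 was called in WT cells without either KO day 2 array. Those fits drop the gap between the KO day 2 pools, whose SD was 0.35 against 0.06 or less in the other groups. With the 4 WT arrays alone, whose pools lay close together, 5 of the 9 genes and 8.42% of all genes were called between the ages, Tbxas1, Alox5 and Ltc4s higher and Ptges and Hpgds lower at day 11. Ptgs2 had a difference of -0.28 ± 0.16 in WT cells (adjusted p = 0.381) and -0.44 ± 0.16 in KO cells (adjusted p = 0.121). The KO value was -0.67 without KO day 2 replicate 2 and -0.21 without replicate 1.

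The genotype difference was then compared between the ages through the interaction term. It was called for none of the 9 genes by limma, with 3.27% of all genes called (1.29% higher and 1.99% lower) and no unadjusted p under 0.05 among the 9. For Ptgs2 the day 11 difference less the day 2 difference was -0.16 (95% interval -0.69 to 0.38), for Ltc4s -0.16 (-0.75 to 0.42), for Lta4h 0.05 (-0.33 to 0.43) and for Alox5 -0.02 (-0.48 to 0.44). Ptges had a value of -0.21 with an interval of -1.43 to 1.02, and the value was -0.93 without KO day 2 replicate 2. In KO cells the Ptges difference of day 11 from day 2 was -1.41 without that pool and 0.02 without replicate 1. Those fits drop the gap between the KO day 2 pools, so a call in them adds no support.

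Of 72 other genes of arachidonic acid release, conversion, breakdown and sensing, 63 were measured. At day 2, 18 were higher and 14 lower in KO cells, with a median difference of 0.01, and at day 11, 13 were higher and 5 lower, with a median of 0.04. Over all genes, 20.1% were called at day 2 (8.86% higher and 11.2% lower). At day 11, 18.6% were called (9.34% higher and 9.29% lower). These shares belong beside the counts of every list given here.

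**Figure D3:**
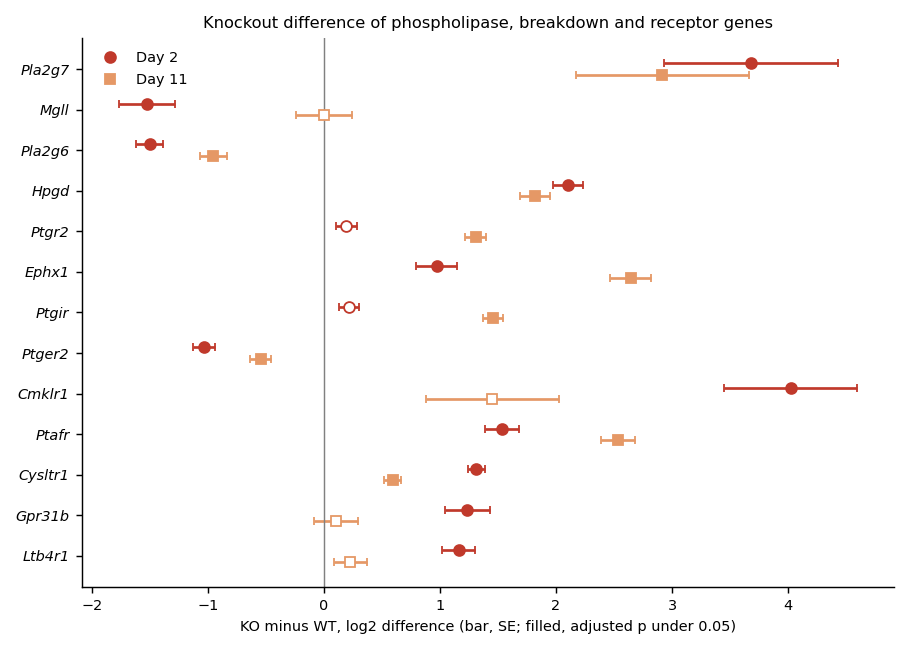
KO minus WT difference on the log2 scale of 13 other pathway genes, at day 2 (circles) and day 11 (squares), with standard errors. The 13 were picked for a call at day 2 or day 11 with no overlap of arrays and a difference of at least 1 log2 unit. Filled symbols mark an adjusted p under 0.05. Hpgd lies near 2 at both ages, Ptgr2 and Ptgir pass the test at day 11 alone, and 3 genes, Mgll, Pla2g6 and Ptger2, lie left of zero where called.

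Among 20 measured genes that release arachidonic acid or return it to lipids, 4 were higher and 5 lower at day 2, and 3 were higher and 2 lower at day 11. Pla2g4a, the cytosolic phospholipase that supplies both branches, showed no call (0.09 at day 2, adjusted p = 0.65, and 0.03 at day 11, adjusted p = 0.93). Pla2g7, which breaks down platelet-activating factor, had a signal of 11.28 and 9.87 in KO at day 2 against 7.71 and 6.08 in WT, and 10.13 and 8.15 in KO at day 11 against 6.07 and 6.38 in WT. Its pools were far apart within 3 of the 4 groups, yet no KO array reached a WT array of its age. The day 2 difference was 3.68 ± 0.75 (adjusted p = 0.0107) and the day 11 difference 2.92 ± 0.75 (adjusted p = 0.0307). Its call was lost without WT day 2 replicate 2 (0.0827) or KO day 2 replicate 1 (0.0528) at day 2, without either WT array or KO day 11 replicate 1 at day 11 (0.107 to 0.153), and at both ages with a trend and robust prior (0.0857 and 0.155). The day 11 difference was 1.93 without KO day 11 replicate 1. Without the 3 pools of 1 sex the difference was 2.16 at day 2 and 1.93 at day 11. That fit took its spread from the WT day 11 pair alone, which lay close together for this gene, so it gives no firmer call.

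Pla2g6, a calcium-independent phospholipase, was lower in KO cells, by -1.50 ± 0.12 at day 2 (adjusted p = 0.000104) and -0.95 ± 0.12 at day 11 (adjusted p = 0.000908). Mgll, which cleaves monoacylglycerols and so frees arachidonic acid, had a signal of 7.86 and 8.77 in KO at day 2 against 9.78 and 9.88 in WT, and 9.96 and 9.96 in KO at day 11 against 9.90 and 10.02 in WT. The genotypes were apart at day 2 (-1.52 ± 0.24, adjusted p = 0.00316) and overlapped at day 11. The day 11 difference less the day 2 difference missed the threshold (1.52 ± 0.34, adjusted p = 0.0611). It was 1.07 without KO day 2 replicate 1 and 1.98 without replicate 2. Those fits drop the gap between the KO day 2 pools, whose SD was 0.64 against 0.09 or less in the other groups. A call in them therefore adds no support.

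**Figure D4:**
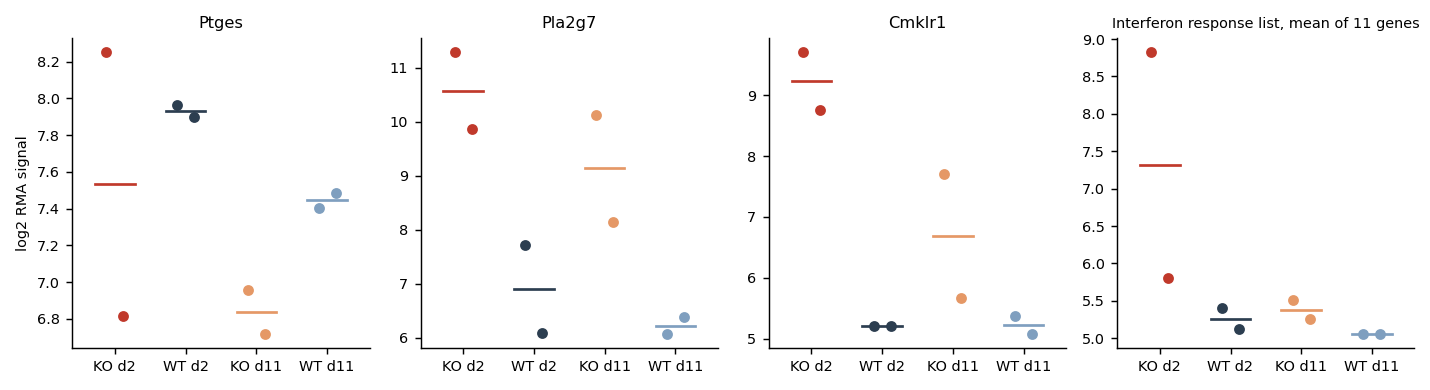
Signal of Ptges, Pla2g7 and Cmklr1 and the mean signal of 11 interferon response genes on each array, in log2 RMA units. Points are the 2 pools of a group, replicate 1 on the left, and bars are means. KO day 2 replicate 1 is the highest array in all 4 panels, at 8.25, 11.28, 9.70 and 8.82. The KO pools of Pla2g7 and Cmklr1 lie farther apart at day 11 (1.98 and 2.04) than at day 2 (1.41 and 0.94). The interferon means of the day 11 KO pools are 5.51 and 5.25. A link of these genes to the interferon response was not tested.

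In prostaglandin breakdown, Hpgd was higher in KO cells at both ages and the reductases Ptgr1 and Ptgr2 at day 11. Hpgd, the dehydrogenase that starts their breakdown, had a signal of 10.69 and 10.88 in KO at day 2 against 8.84 and 8.52 in WT, and 8.85 and 9.05 in KO at day 11 against 7.07 and 7.20 in WT. No KO array overlapped a WT array of its age. It was 2.10 ± 0.13 higher at day 2 (adjusted p = 3.05e-05) and 1.82 ± 0.13 higher at day 11 (adjusted p = 6.09e-05), and it was lower at day 11 than at day 2 in KO cells (-1.83, adjusted p = 0.000142) and in WT cells (-1.55, adjusted p = 0.000774). Ptgr2, a reductase of the next step, had a signal of 7.37 and 7.53 in KO at day 2 against 7.20 and 7.31 in WT, and 8.57 and 8.75 in KO at day 11 against 7.42 and 7.29 in WT. It was called at day 11 (1.31 ± 0.09, adjusted p = 6.97e-05) and not at day 2 (0.19 ± 0.09, adjusted p = 0.204). Of the 10 measured genes of this list, 2 were higher (Hpgd and the exporter Abcc4) and 1 lower (Ptges2) at day 2, and 3 were higher (Hpgd, Ptgr1 and Ptgr2) and 1 lower (Ptges3) at day 11.

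Of 18 measured genes of other lipoxygenases and of leukotriene conversion and breakdown, 5 were higher and 7 lower at day 2, and 3 were higher and 1 lower at day 11. Abcc1, which exports leukotriene C4, was higher at both ages (0.84 at day 2, adjusted p = 0.00027, and 0.79 at day 11, adjusted p = 0.00038). Mgst2 and Mgst3, microsomal glutathione transferases related to Ltc4s, were lower at day 2 and showed no call at day 11. Ephx1, a microsomal epoxide hydrolase with many substrates, had a signal of 6.01 and 6.42 in KO at day 2 against 5.23 and 5.26 in WT, and 9.04 and 9.27 in KO at day 11 against 6.75 and 6.28 in WT. Its difference was 0.97 ± 0.18 at day 2 (adjusted p = 0.00673) and 2.64 ± 0.18 at day 11 (adjusted p = 5.55e-05).

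Receptors of the same lipids moved unevenly. Of 7 measured prostanoid receptor genes, 1 was higher and 1 lower at day 2, and 2 were higher and 1 lower at day 11. Ptger2, a prostaglandin E2 receptor that raises cyclic AMP, was lower in KO cells, with a signal of 5.74 and 5.98 in KO at day 2 against 6.84 and 6.95 in WT, and 6.41 and 6.35 in KO at day 11 against 6.96 and 6.89 in WT (-1.03 ± 0.09, adjusted p = 0.000198, and -0.55 ± 0.09, adjusted p = 0.00464). Ptgir, the prostacyclin receptor, had a signal of 8.03 and 8.16 in KO at day 2 against 7.87 and 7.88 in WT, and 9.51 and 9.63 in KO at day 11 against 8.02 and 8.20 in WT. It was called at day 11 (1.46 ± 0.09, adjusted p = 3.52e-05) and not at day 2 (0.22 ± 0.09, adjusted p = 0.125).

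Of 8 measured receptors of leukotrienes and other lipid mediators, 6 were higher and none lower in KO cells at day 2, with a median difference of 1.20, and 2 were higher and none lower at day 11, with a median of 0.17. Cysltr1, a receptor of the cysteinyl leukotrienes, had a signal of 9.30 and 9.35 in KO at day 2 against 7.97 and 8.05 in WT, and 8.24 and 8.07 in KO at day 11 against 7.57 and 7.56 in WT. It was higher in KO cells by 1.31 ± 0.07 at day 2 (adjusted p = 2.42e-05) and 0.59 ± 0.07 at day 11 (adjusted p = 0.0011), opposite in sign to Ltc4s. Ltb4r1, the high-affinity receptor of leukotriene B4, had a signal of 7.29 and 6.97 in KO at day 2 against 6.12 and 5.81 in WT (1.16 ± 0.14, adjusted p = 0.000877), and 6.23 and 6.01 in KO at day 11 against 5.85 and 5.94 in WT (0.23 ± 0.14, adjusted p = 0.358). Ptafr, the receptor of platelet-activating factor, was 1.53 ± 0.15 higher at day 2 (adjusted p = 0.000274) and 2.53 ± 0.15 higher at day 11 (adjusted p = 3.24e-05).

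Cmklr1, the receptor of the attractant protein chemerin, had a signal of 9.70 and 8.76 in KO at day 2 against 5.21 and 5.21 in WT (4.02 ± 0.58, adjusted p = 0.00196). At day 11 it was 7.70 and 5.66 in KO against 5.37 and 5.09 in WT (1.45 ± 0.58, adjusted p = 0.137). The size of the day 11 difference rests on the pool, at 2.47 without KO day 11 replicate 2 and 0.43 without replicate 1. Those fits drop the gap between the KO day 11 pools, so a call in them adds no support. Gpr31b, whose human counterpart binds a lipoxygenase product, was 1.24 ± 0.19 higher at day 2 (adjusted p = 0.00278) and showed no call at day 11 (0.11 ± 0.19, adjusted p = 0.796).

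Several of the enzymes are abundant in other blood cells, so the markers of those cells were read on the same arrays. Mast cells, basophils and eosinophils carry Ltc4s, Alox5 and Hpgds. Of 12 mast cell and basophil markers, 2 (Cpa3 and Hdc) were higher in KO cells at day 2 and none was called at day 11. Their mean signal was 4.42 and 4.32 in KO at day 2 against 4.15 and 4.24 in WT, and 4.09 and 4.12 in KO at day 11 against 4.12 and 4.16 in WT. None of 5 eosinophil markers was called at either age, and their mean lay between 3.70 and 3.84 on all 8 arrays. The defining genes Fcer1a (3.59 to 3.74), Ms4a2 (3.13 to 3.21), Epx (3.50 to 3.77) and Prg2 (3.65 to 3.85) lay below the array median of 5.35 on every array, and none of them was called. Hdc, which makes histamine, had a signal of 6.78 and 6.20 in KO at day 2 against 5.22 and 5.66 in WT (1.05 ± 0.19, adjusted p = 0.00698), Cpa3 one of 4.41 and 4.18 against 3.80 and 4.04, and Kit one of 5.52 and 5.36 against 5.08 and 5.26 without a call. The part of these cells in the leukotriene enzyme values was not tested.

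Neutrophils carry Alox5, Alox5ap and Lta4h. Of 12 neutrophil markers, 8 were higher and 1 lower in KO cells at day 2, and 2 were higher and 2 lower at day 11. Their mean was 6.66 and 6.63 in KO at day 2 against 5.44 and 5.52 in WT, and 5.88 and 5.78 in KO at day 11 against 5.66 and 5.57 in WT. Their median difference was 0.87 at day 2 and -0.01 at day 11. Mmp8, among those higher at day 11, had a mean of 11.08 in KO against 7.85 in WT. Their part in the Alox5, Alox5ap and Lta4h values was not tested. Platelets carry Tbxas1. Of 9 platelet markers, 5 were higher at day 2, among them Ppbp (6.66 and 6.17 in KO against 4.61 and 4.85 in WT), and 1 was higher and 1 lower at day 11. Of 8 dendritic cell markers, 5 were higher in KO cells at day 2 and 1 at day 11, and of 5 monocyte markers, 3 were higher at day 2, and 3 were higher and 1 lower at day 11. Dendritic cell markers had a mean of 6.14 and 6.24 in KO at day 2 against 4.83 and 4.94 in WT, and 5.37 and 5.56 in KO at day 11 against 5.02 and 5.12 in WT. The median difference of this list was 1.03 at day 2 and 0.03 at day 11. The 1 called at day 11 was Clec9a, with a mean of 9.03 in KO against 5.98 in WT. Monocyte markers had a mean of 9.93 and 9.89 in KO at day 2 against 8.38 and 8.29 in WT, and 8.11 and 7.94 in KO at day 11 against 7.68 and 7.66 in WT. The part of these cells in the Ptgs2 and receptor differences was not tested. Of 7 endothelial markers, 3 (Pecam1, Cdh5 and Kdr) were higher at day 2, with a list mean of 6.59 and 6.43 in KO against 5.94 and 6.01 in WT, and 1 was higher at day 11. None of 8 epithelial markers was called at day 2, and 2 (Epcam and Krt18) were lower at day 11. Of 7 fibroblast and smooth muscle markers, none was called at day 2 and 1 was higher at day 11, and of 8 lymphocyte markers, 1 was higher at day 2, and 2 were higher and 1 lower at day 11.

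The genes most like a member were sought for the 3 members whose group means spanned at least 1 log2 unit, among 1396 genes with a like span and over the 8 arrays. These arrays form 4 groups, so the correlation rests largely on 4 means. Nearest to Ptgs2 were Lgals9 (r = 0.997), which encodes galectin 9, Rai14 (r = 0.996) and Tes (r = 0.993). Nearest to Ltc4s were the cytokine gene Il18 (r = 0.989), the adhesion molecule gene Mcam (r = 0.987) and the mitochondrial carrier gene Slc25a25 (r = 0.985). Il18 had a signal of 8.71 and 9.09 in KO at day 2 against 10.47 and 10.50 in WT, and 9.26 and 9.09 in KO at day 11 against 10.86 and 10.84 in WT. Nearest to Ptges were Nxn (r = 0.906), the small RNA gene Scarna13 (r = 0.896) and AW112010 (r = 0.843).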

How the data were processed

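The deposited table holds 1 log2 value per probe set and array for 28874 probe sets, which the authors made with RMA and R 2.15.2 according to the submitters' processing notes. RMA gives every array the same distribution (median 5.35) and so hides any change of overall RNA content. Scanner files were not used here, and depth has no meaning for arrays, where 2 per group limits the precision. Of the probe sets, 21159 had 1 symbol in the platform annotation, and each of 18782 genes was represented by its probe set of highest mean signal. Limma 3.58.1 in R 4.3.3 fitted 1 mean per group over all 8 arrays (4 residual and 3.77 prior degrees of freedom), without a replicate block, with Benjamini-Hochberg adjustment over all genes of a contrast. The fit was tried on simulated data with the same spread in every group and added differences of at least 1 log2 unit. That trial does not cover genes with unequal spread such as Ptges, nor smaller differences such as those of Alox5 and Lta4h. Errors are standard errors unless named otherwise.

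Members and lists were chosen with earlier results of these data known. All members are named. Other pathway genes are named with values where they were called at day 2 or day 11, their arrays did not overlap and they differed by at least 1 log2 unit; Pla2g4a, Abcc1 and Mgst2 with Mgst3 were added after their values were seen. Lists are given by counts, medians and means, with no set test. Alternatives were a trend and robust prior, the 4 arrays compared, a replicate block, all probe sets, genes above the median signal, array weights, a minimum difference, each array left out and, chosen after seeing the data, 3 pools of 1 sex left out. Promoter windows and gene models are RefSeq's (GRCm38.p6). Plots used matplotlib 3.10.9.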

Additional observations from a re-analysis of the deposited data

Results flagged for a closer look

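Among the named genes, 5 had a genotype difference that itself differed between the ages, by the interaction term of the limma fit (day 11 difference less day 2 difference). None of the 9 synthesis enzymes was among them. The other named genes were picked by a call and a difference of at least 1 log2 unit at either age. This count therefore cannot be set beside the 3.27% of all genes called for the interaction. Of all 63 measured pathway genes, 5 were called higher and 5 lower. Ptgir, the prostacyclin receptor, had the value 1.24 (adjusted p = 0.00258), from a KO difference of 1.46 at day 11 and 0.22 at day 2, and Ptgr2, a reductase of prostaglandin breakdown, 1.11 (adjusted p = 0.00532), from 1.31 at day 11 and 0.19 at day 2. Without the 3 pools of 1 sex these calls were lost, but that fit took its spread from the WT day 11 pair alone. A call lost there cannot be read as an effect of sex. The values in that fit were 1.23 for Ptgir, 1.06 for Ptgr2, 1.56 for Ephx1, -0.87 for Cysltr1 and 1.24 for Ptafr. Ephx1 had the value 1.67 (adjusted p = 0.0147), a call also lost without WT day 2 replicate 1 (0.0753) or replicate 2 (0.0755). For Cysltr1 the value was -0.72 (adjusted p = 0.0132), since its KO difference was 0.59 at day 11 and 1.31 at day 2, and the call was also lost without WT day 2 replicate 1 (0.0721) or either WT day 11 array (0.0652 and 0.0578). Ptafr had the value 1 (adjusted p = 0.0463), a call also lost without any array other than WT day 11 replicate 2 (0.0619 to 0.147), with a replicate block (0.0679), with all probe sets in the fit (0.0682) and with array weights (0.0535).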

How the results depend on the processing

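Of the 4 enzyme genes called in KO cells at each age, Ptgs2 and Ltc4s kept direction and call in all 16 alternatives, and no called value changed sign. With a minimum difference of 1 log2 unit these 2 were left, against 4, at either age. Leaving out an array in turn gave 2 to 4 calls at day 2 and 2 to 5 at day 11. Between the ages in WT cells, the 1 call became 5 with the 4 arrays alone, where 8.42% of all genes were called, and 0 with the minimum difference. It was lost without some single arrays and without the 3 pools of 1 sex. In KO cells the 2 calls became 1 with a trend and robust prior, 1 with all probe sets and 0 with the minimum difference. With the 4 arrays alone they became 0, where 7.81% of all genes were called. Each was lost without some single arrays, and that of Tbxas1 also without the 3 pools. For the interaction, leaving out an array gave 0 to 1 calls, the 1 being Ptges. Where an array was left out, its group held 1 array, assumed to vary like the others. With a replicate block the counts were 4 at day 2, 4 at day 11, 1 in WT, 2 in KO and 0 for the interaction. Nothing in the labels ties replicate numbers to a shared litter or day, and deviations of same-numbered arrays correlated from -0.075 to 0.25 across pairs of groups. The 3 pools of 1 sex were KO day 2 replicate 1, WT day 2 replicate 2 and KO day 11 replicate 1. Without them every group but WT day 11 held 1 array, and the spread came from that pair alone. Calls and adjusted p-values of that fit, here and above, cannot be set beside those of the main fit. Shares over all genes were computed for the main fit and the fits of 4 arrays. Counts from other fits cannot be read as a result about these enzymes. The causes of these changes were not tested. Signal over background limits Alox15, for which no detection values were used.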
